A study of Mus musculus with 6 samples.

Results

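The nuclear receptors are a family of transcription factors, many of which are switched by a small fat-soluble ligand such as a steroid, thyroid hormone, retinoic acid or a fatty acid. Of 45 family genes considered, 43 were named by at least 1 probe set that names no other gene, out of 18193 genes so named on the array. The signals of Nr1h2 and Nr2e3 were not analysed here, as no probe set used names either gene alone. The probe set with the highest mean signal over the 6 arrays stood for each gene, and 26 of the 43 genes passed the filter on low signal (a mean log2 signal of at least 5.90) and were tested. Of these 26, in arrays labelled Rhau KO Esrrg, Nr4a1 and Nr4a2 were higher and Esr1 lower, and 22 did not pass the test.

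The family members share a zinc-finger domain that binds DNA and, in most of them, a pocket that binds the ligand. Some bind DNA as a dimer with a retinoid X receptor, steroid receptors pair with their own kind, and orphan members such as the NR4A proteins work without a known natural ligand. In the developing heart, retinoic acid receptors are known for their part in chamber and outflow formation, COUP-TFII (Nr2f2) for atrial identity and vessels, and the estrogen-related receptors for the genes of mitochondrial energy supply.

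RNA was measured with Affymetrix 3' expression arrays in mouse embryonic hearts at E12.5, all of strain C57BL/6. By label, 3 arrays are of Rhau KO hearts and 3 of wildtype hearts, numbered 1 to 3 in each group, and the series design describes 3 hearts from each group. Dhx36 is the current symbol for Rhau, which encodes a helicase that unwinds G-quadruplexes. The promoter or cell type in which the gene was deleted, the deleted part and the sex of the embryos were not stated, and whole hearts were used, so fewer cells of a type and less RNA per cell cannot be told apart. The array number limits the precision, and nothing in the labels shows whether the hearts came from separate litters, so the p-values measure only the spread between these arrays.

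The checks of the labels bear on every direction below. Dhx36 signal was 10.10, 10.48 and 10.23 in the arrays labelled Rhau KO and 8.99, 8.88 and 8.71 in the arrays labelled wildtype, a difference of 1.41 (SE 0.108) (2.66-fold higher, limma's adjusted p = 1.46e-05) that runs against the label. Where the probes lie relative to the deletion is not known, and a probe outside the deletion is no check of it. Groups are therefore named by the label they carry. Of the Y-linked genes, Eif2s3y stood at 10.30, 10.83 and 11.12 under the Rhau KO label and at 1.06, 0 and 9.66 under the wildtype label. Xist, the RNA of the inactive X chromosome, was at 13.14, 12.37 and 5.10 under the Rhau KO label and at 13.85, 13.82 and 13.47 under the wildtype label. Replicates 1 and 2 labelled Rhau KO and replicate 3 labelled wildtype thus carried both signals. Fits within these 3 arrays set replicates 1 and 2 labelled Rhau KO against the single array of wildtype replicate 3, and fits without them set the single array of Rhau KO replicate 3, low in Xist, against wildtype replicates 1 and 2, low in Y-linked signal. Each has an arm of 1 array with no spread of its own, and in the second sex-linked signal and label cannot be told apart, so they are given as values only. All 3 measured Y-linked genes were called higher under the Rhau KO label. In the marker counts that follow, rose and fell mean called by limma. Of all 12416 tested genes 8.2% were called higher and 10.8% lower. All 9 cardiomyocyte markers passed the filter and 4 of them fell (median -0.13; summed log2 signal 17.62 to 17.85 under the Rhau KO label against 17.84 to 17.90 under the wildtype label). Of 11 tested erythroid markers 8 fell (median -0.99), and their summed log2 signal was 16.18 to 16.49 under the Rhau KO label and 16.58 to 16.68 under the wildtype label. Of 12 endothelial markers 6 rose (median 0.25; summed signal 13.85 to 13.97 under the Rhau KO label against 13.63 to 13.73 under the wildtype label), of 6 neural markers 3 rose (median 0.33; 12.22 to 12.28 under the Rhau KO label against 11.61 to 11.66 under the wildtype label), and of 10 macrophage markers 2 rose (median 0.29; 11.98 to 12.28 under the Rhau KO label against 11.53 to 11.64 under the wildtype label). None of the 8 epicardial markers passed limma's test, yet their summed signal lay lower without overlap (median -0.15; 13.42 to 13.52 under the Rhau KO label against 13.53 to 13.68 under the wildtype label). Neither of the 2 liver and gut markers above the filter passed (median -0.57; summed signal of all 6 markers 8.33 to 8.82 under the Rhau KO label against 8.60 to 8.95 under the wildtype label). The part of these cell types and of embryo sex in the receptor results was not tested except as stated beside each gene.

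As a group the receptors differed no more often than other genes. Of the 26 tested, 4 were called (15.4%), against a background of 19.0% of 12416 tested genes. In the upward direction 3 receptors were called (11.5%), where the background was 8.2%, and in the downward direction 1 (3.85%), where it was 10.8%. The 3 arrays of one label lay wholly apart from the 3 of the other for 7 receptors (26.9%), against 37.1% of all tested genes. Higher under the Rhau KO label without overlap were 4 receptors (15.4%, background 18.4%), and lower without overlap 3 (11.5%, background 18.7%). The median difference was 0.05 over the 26 receptors and 0.01 over all tested genes, on the log2 scale and as labelled Rhau KO minus labelled wildtype, and the median size of a difference was 0.16 and 0.15. The median SD within a label was 0.12 for the receptors and 0.12 for all tested genes. The share of called genes that were higher was 43.2% as reported and 22.4% after median centring of the arrays. Quantile normalization gave 958 genes higher and 1374 lower, against 1018 and 1336 as reported. The split between directions thus moved with median centring and little with quantile normalization.

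**Figure D1:**
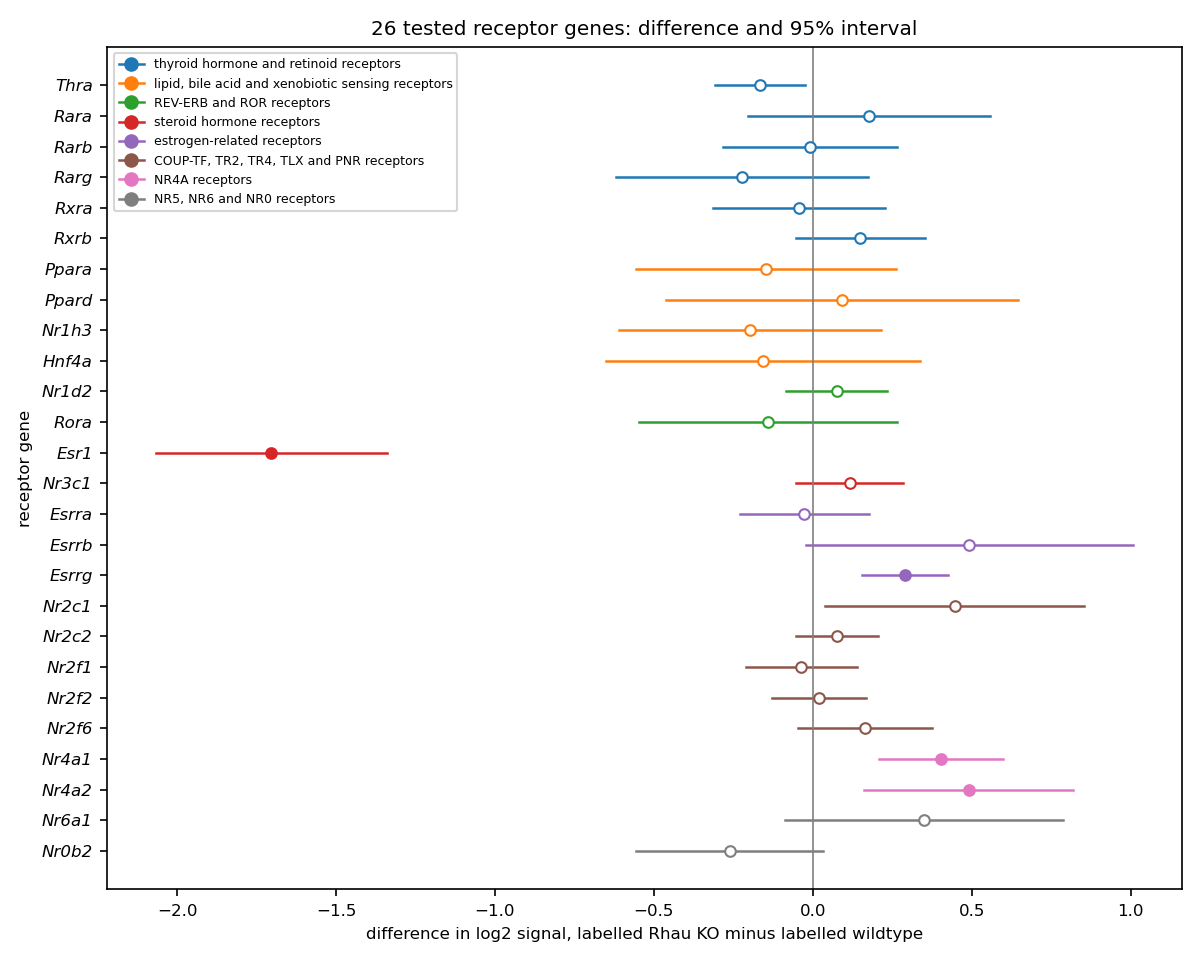
Difference in log2 signal (horizontal axis, labelled Rhau KO minus labelled wildtype) for the 26 tested receptor genes, grouped by role in colour; bars are 95% intervals from limma, and filled points passed the adjusted test. Esr1 stands at -1.70, the 3 filled points to the right of 0 are Esrrg, Nr4a1 and Nr4a2, and the other 22 points lie between -0.26 and 0.49.

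Among the steroid hormone receptors, Esr1, the estrogen receptor alpha that activates genes when estrogen binds it, had the largest difference of the 26 tested receptors. Its log2 signal was 7.00, 7.31 and 7.24 in the arrays labelled Rhau KO, against 8.69, 8.73 and 9.24 in the arrays labelled wildtype. Every array labelled Rhau KO was more than 1 log2 unit below every array labelled wildtype. The means were 7.18 ± 0.16 under the Rhau KO label and 8.89 ± 0.30 under the wildtype label (SD, n = 3 each), a difference of -1.70 (SE 0.164, 95% interval -2.07 to -1.34), or 3.26-fold lower (limma, adjusted p = 7.53e-05). The call held in all 17 alternatives that kept at least 2 arrays of each label, and the difference ranged from -2.40 with Y-linked signal as covariate to -0.78 when all Esr1 probe sets were averaged. It was -2.08 within the 3 arrays that carried both Xist and Y-linked signal and -1.47 without them.

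The other Esr1 probe sets did not give a call. The second one above the filter stood at 6.27, 5.89 and 4.14 under the Rhau KO label and 6.09, 7.16 and 6.50 under the wildtype label, a difference of -1.15 (SE 0.506) whose groups overlapped. A further one, whose mean of 5.30 lay below the filter, differed by 0.51 with overlapping groups. The decrease thus rests on the brightest of 3 probe sets, and it was smaller when they were averaged.

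Nr3c1, the glucocorticoid receptor that answers to cortisol-like hormones, was at 9.91, 10.05 and 9.88 under the Rhau KO label and at 9.76, 9.93 and 9.81 under the wildtype label. The groups overlapped, and the difference of 0.12 had a 95% interval of -0.05 to 0.28. Nr3c2, the mineralocorticoid receptor that answers to aldosterone, lay below the filter and was not tested. Its signal was 5.14, 6.17 and 5.95 under the Rhau KO label and 3.29, 2.93 and 4.85 under the wildtype label, with no overlap. Without the filter it was fitted at 2.06 with adjusted p = 0.0559 and was not called. Esr2, the estrogen receptor beta, and Pgr, the progesterone receptor, had means over the 6 arrays of 3.57 and 5.11, also below the filter, with overlapping groups.

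The estrogen-related receptors are orphan members that bind DNA near genes of oxidative metabolism, and all 3 were tested. Esrrg, known for its part in the metabolic maturation of the heart, was at 10.12, 10.19 and 10.13 in the arrays labelled Rhau KO, against 9.87, 9.85 and 9.85 in the arrays labelled wildtype. The arrays of a label lay close together, with SDs of 0.037 under the Rhau KO label and 0.014 under the wildtype label, and did not overlap. Esrrg rose by 0.29 (SE 0.061), or 1.22-fold (limma, adjusted p = 0.00874). A second Esrrg probe set differed by 0.36 without a call, its groups also apart, and another by -0.01. With Y-linked signal as covariate the difference was 0.29 with an SE of 0.140 and no call, and averaging the probe sets gave 0.21 without a call. It was 0.31 within the 3 arrays that carried both sex-linked signals and 0.27 without them.

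Esrra, the family member best known for mitochondrial genes, was at 10.37, 10.13 and 10.26 under the Rhau KO label and at 10.14, 10.46 and 10.24 under the wildtype label, and its difference of -0.03 had a 95% interval of -0.23 to 0.18. Esrrb, known for its part in embryonic stem cells, was at 7.07, 6.63 and 7.39 under the Rhau KO label and at 6.70, 6.57 and 6.33 under the wildtype label. The groups overlapped through replicate 2 labelled Rhau KO, and the difference of 0.49 (95% interval -0.02 to 1.01) did not pass, with adjusted p = 0.172. Another Esrrb probe set, marked by its name as one that may bind other transcripts, was at 7.23, 7.11 and 6.78 under the Rhau KO label and at 5.86, 5.92 and 6.59 under the wildtype label, and rose by 0.91 (limma with every probe set tested on its own, adjusted p = 0.0351). The mean of all Esrrb probe sets gave 0.86 with adjusted p = 0.0357.

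**Figure D2:**
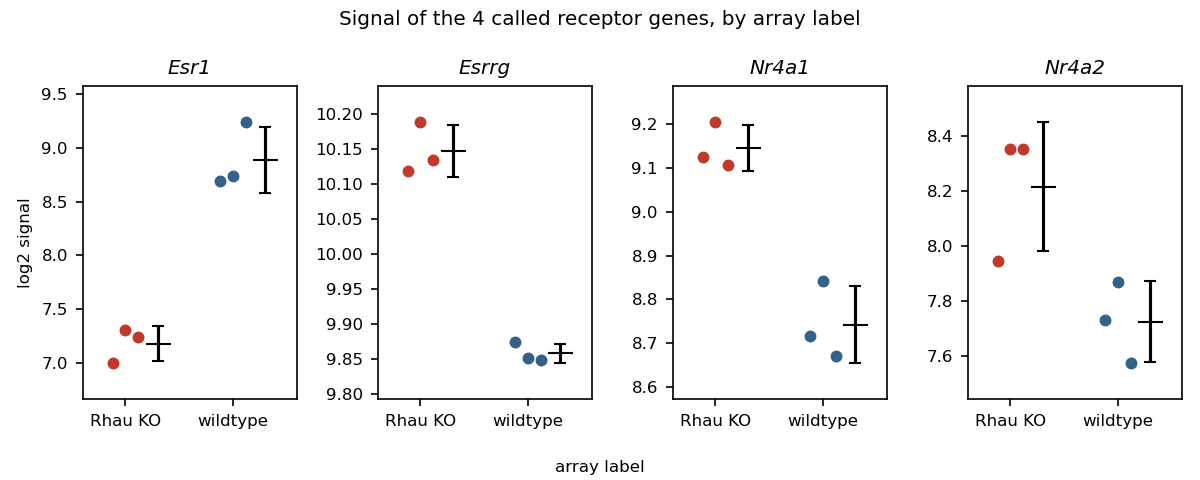
Log2 signal of the 4 called receptor genes on each array (points), with the mean and SD (n = 3) beside them, for the arrays labelled Rhau KO and labelled wildtype; the vertical axes differ between genes and do not start at 0. Esr1 lies lower under the Rhau KO label, and Esrrg, Nr4a1 and Nr4a2 lie higher, with no overlap of groups in any of the 4.

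The NR4A receptors are orphan members made quickly after a cell is stimulated, and cyclic AMP is one of the signals known to raise them. Nr4a1 was at 9.12, 9.20 and 9.11 in the arrays labelled Rhau KO, against 8.72, 8.84 and 8.67 in the arrays labelled wildtype, measured by a single probe set. The lowest array labelled Rhau KO lay above the highest labelled wildtype. The difference was 0.40 (SE 0.088), or 1.32-fold higher (limma, adjusted p = 0.0102). The call was lost with Y-linked signal as covariate, which follows the label, at 0.51 (SE 0.199). It held in the other 16 of 17 alternatives. The difference was 0.49 within the 3 arrays that carried both sex-linked signals and 0.33 without them.

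Nr4a2 was at 7.94, 8.35 and 8.35 in the arrays labelled Rhau KO, against 7.73, 7.87 and 7.57 in the arrays labelled wildtype. The groups did not overlap, but replicate 1 labelled Rhau KO and replicate 2 labelled wildtype lay close to each other. The difference was 0.49 (SE 0.149), or 1.40-fold higher (limma, adjusted p = 0.0430), and the call held in only 3 of 17 alternatives. It was lost without replicate 2 or 3 labelled Rhau KO, at 0.42 in either fit, and without replicate 1, 2 or 3 labelled wildtype, at 0.49, 0.56 and 0.41. Of its other probe sets past the low-signal filter, 2 with groups apart stood at 0.30 and 0.21 and 1 at -0.19, without a call, and the mean of all Nr4a2 probe sets differed by 0.05. Nr4a3 lay below the filter at 6.08, 4.63 and 6.24 under the Rhau KO label and 4.62, 5.61 and 4.67 under the wildtype label, with overlapping groups.

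Because both tested NR4A genes were higher, the 250 bases before the start of each NR4A gene are shown. The sequences are RefSeq's, of build GRCm38.p6, 5′ to 3′ on the strand of the gene, and capitals mark the core of the cyclic AMP response element, TGACG on either strand (read as CGTCA on the other).
Nr4a1: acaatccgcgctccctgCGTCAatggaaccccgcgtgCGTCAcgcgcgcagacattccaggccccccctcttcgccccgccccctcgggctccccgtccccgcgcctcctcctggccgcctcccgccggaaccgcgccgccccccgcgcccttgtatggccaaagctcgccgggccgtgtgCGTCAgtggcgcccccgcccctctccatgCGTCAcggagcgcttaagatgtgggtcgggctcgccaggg
Nr4a2: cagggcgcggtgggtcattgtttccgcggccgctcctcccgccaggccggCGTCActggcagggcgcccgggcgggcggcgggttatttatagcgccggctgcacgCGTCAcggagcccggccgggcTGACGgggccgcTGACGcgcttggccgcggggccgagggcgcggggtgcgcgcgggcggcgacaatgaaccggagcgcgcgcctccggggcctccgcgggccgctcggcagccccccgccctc
Nr4a3: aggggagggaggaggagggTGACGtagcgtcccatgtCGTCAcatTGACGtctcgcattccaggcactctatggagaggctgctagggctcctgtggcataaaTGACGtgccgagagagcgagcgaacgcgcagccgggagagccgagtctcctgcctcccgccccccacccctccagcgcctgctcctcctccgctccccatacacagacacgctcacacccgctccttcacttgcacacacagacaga
The windows are chr15:101266596-101266845 on the plus strand for Nr4a1, chr2:57124004-57124253 on the minus strand for Nr4a2 and chr4:48045055-48045304 on the plus strand for Nr4a3. Each held 4 matches. Of 32851 such windows over all genes, 17.8% held at least 1 match and 0.137% held at least 4. Among the 62 receptor windows 21.0% held at least 1 match. By gene, 13 of the 41 receptor genes with a window had at least 1 match in some window, a share not counted over all genes. The 3 NR4A genes were the only receptors with at least 4. The motif was chosen with the promoters in view and a match is a description, not a site. Of the 62 receptor windows 16.1% held at least 1 AGGTCA, the core motif that many nuclear receptors bind, on either strand, against 14.0% of all windows.

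The receptors for thyroid hormone and retinoids had no call among 6 tested. Thra, the main thyroid hormone receptor of the heart, was at 10.02, 9.99 and 9.96 under the Rhau KO label and at 10.22, 10.10 and 10.15 under the wildtype label. The groups lay apart, yet the difference of -0.17 (95% interval -0.31 to -0.03) did not pass, with limma's adjusted p = 0.0949. Median centring of the arrays gave -0.24 with a call (adjusted p = 0.0401). A second Thra probe set, at -0.40, passed when limma tested every probe set on its own (adjusted p = 0.0405). Another above the filter stood at -0.12 with overlapping groups and no call. With Y-linked signal as covariate the brightest probe set differed by -0.11, also without a call.

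Rarb, a retinoic acid receptor that is itself induced by retinoic acid, was at 9.72, 9.31 and 9.84 under the Rhau KO label and at 9.67, 9.53 and 9.70 under the wildtype label, and differed by -0.01 (95% interval -0.28 to 0.26). Rara and Rarg, the other retinoic acid receptors, differed by 0.18 (-0.21 to 0.56) and -0.22 (-0.62 to 0.17). Among the retinoid X receptors, the shared dimer partners, Rxra differed by -0.04 (-0.31 to 0.23) and Rxrb by 0.15 (-0.05 to 0.35). The groups overlapped for all 5 of these genes. Thrb, the other thyroid hormone receptor, and Rxrg lay below the filter, with means of 5.56 and 5.39.

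Receptors that sense lipids, bile acids and foreign compounds were mostly near the low end of the signal. Of 10 measured, Ppara, Ppard, Nr1h3 and Hnf4a passed the filter and none was called. Ppara, the fatty acid sensor of heart and liver, was at 6.67, 6.83 and 6.77 under the Rhau KO label and at 7.08, 6.86 and 6.77 under the wildtype label. Its difference was -0.15 (-0.56 to 0.26), that of Ppard, a related fatty acid sensor, 0.09 (-0.46 to 0.64), that of Nr1h3, the liver X receptor alpha that senses oxysterols, -0.20 (-0.61 to 0.21), and that of Hnf4a, a regulator of liver genes, -0.16 (-0.65 to 0.34). The groups overlapped for all 4 on these probe sets. Another Ppara probe set above the filter was at 6.04, 6.14 and 5.83 under the Rhau KO label. Under the wildtype label it was at 6.60, 6.28 and 6.48, apart at -0.45 without a call. Pparg, the fat cell regulator, was at 4.49, 4.87 and 5.73 under the Rhau KO label and at 3.04, 4.86 and 2.83 under the wildtype label, below the filter and with overlapping groups. The vitamin D receptor Vdr, the bile acid receptor Nr1h4, the xenobiotic receptors Nr1i2 and Nr1i3, and Hnf4g had means between 2.55 and 5.82.

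The COUP-TF receptors had narrow intervals on their brightest probe sets. Nr2f2, needed for atrial identity and veins, was at 10.66, 10.54 and 10.68 under the Rhau KO label and at 10.51, 10.68 and 10.64 under the wildtype label, and its difference of 0.02 had a 95% interval of -0.13 to 0.17. Nr2f1, its close relative, was at 10.58, 10.83 and 10.59 under the Rhau KO label and at 10.72, 10.61 and 10.79 under the wildtype label, with -0.04 (-0.21 to 0.14). Nr2f6 differed by 0.16 (-0.05 to 0.37). In all 3 the groups overlapped. Other Nr2f2 probe sets gave larger differences: 1 of lower signal was at 7.12, 7.25 and 6.97 under the Rhau KO label and at 6.87, 6.47 and 6.28 under the wildtype label. Its groups lay apart, at 0.58 without a call when each probe set was tested on its own (adjusted p = 0.0916). A further one lay apart at 0.11, and the mean of all Nr2f2 probe sets stood at 0.33 without a call (adjusted p = 0.169).

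Nr2c1 and Nr2c2, the testicular receptors TR2 and TR4 that are also known as repressors of embryonic globin genes in red cell precursors, stood at 0.45 and 0.08. Nr2c1 was at 8.36, 8.30 and 8.83 under the Rhau KO label and at 7.91, 7.81 and 8.43 under the wildtype label. Replicate 3 was the highest of each label, and the groups overlapped through replicate 3 labelled wildtype. The difference of 0.45 (95% interval 0.04 to 0.85) did not pass (limma, adjusted p = 0.121). Without replicate 3 labelled wildtype it was 0.63 with a call (adjusted p = 0.0397). With Y-linked signal as covariate it was -0.42 without a call. It was -0.09 within the 3 arrays that carried both sex-linked signals and 0.96 without them. Other Nr2c1 probe sets above the filter stood at 0.39 with groups apart and at 0.33 and 0.21 with overlapping groups, none called. The mean of all Nr2c1 probe sets differed by 0.25 without a call. Nr2c2 did not pass on its brightest probe set (95% interval -0.05 to 0.20), whereas another of its probe sets rose by 0.44 when each was tested on its own (adjusted p = 0.0294). Nr2e1, a receptor of neural stem cells, lay below the filter with a mean of 4.81.

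**Figure D3:**
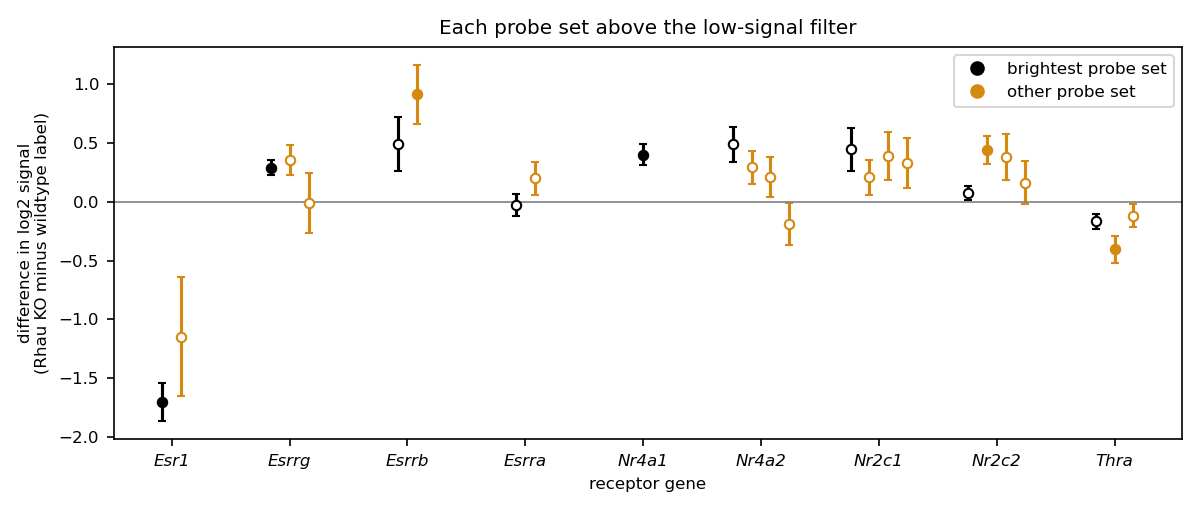
Difference in log2 signal (vertical axis, Rhau KO label minus wildtype label) of every probe set above the low-signal filter for 9 receptor genes, with SE as bars; black is the brightest probe set, orange the others, and filled points passed when each of 22796 probe sets was tested on its own. Filled points are the brightest probe sets of Esr1, Esrrg and Nr4a1 and single other probe sets of Esrrb, Nr2c2 and Thra; the brightest probe set of Nr4a2 is open in this fit.

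Of the 26 tested receptors, 15 had more than 1 probe set above the filter. The 4 called genes had 6 other such probe sets, of which 4 pointed the same way and 0 passed when tested with every probe set on its own. Limma called 3 of 33 other probe sets of the 26 genes in that fit, 1 each of Esrrb, Nr2c2 and Thra, or 9.09% against 14.6% of all 22796 probe sets. Groups lay apart for 11 of the 33. The share over all probe sets was not counted, and over the 12416 tested genes, at 1 probe set each, it was 37.1%.

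The REV-ERB and ROR receptors compete for the same DNA sites and link the clock to metabolism. Nr1d2, or REV-ERB beta, was at 10.48, 10.38 and 10.38 under the Rhau KO label and at 10.36, 10.44 and 10.22 under the wildtype label, a difference of 0.07 (-0.08 to 0.23). Rora, an activator at those sites, was at 8.57, 7.99 and 7.76 under the Rhau KO label and at 8.36, 8.17 and 8.22 under the wildtype label. Its arrays labelled Rhau KO spread over more than those labelled wildtype, and the difference of -0.14 had a 95% interval of -0.55 to 0.27. Another Rora probe set was at 6.78, 6.45 and 6.24 under the Rhau KO label and at 7.18, 7.05 and 7.02 under the wildtype label, apart at -0.59 without a call (adjusted p = 0.0735 with each probe set on its own). A further one stood at -0.47, and the brightest was at 0.53 with Y-linked signal as covariate, both without a call. Nr1d1, or REV-ERB alpha, and Rorb lay below the filter, with means of 5.88 and 5.46.

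In the last group, Nr6a1, the germ cell nuclear factor of early embryos, was at 6.82, 6.86 and 6.62 under the Rhau KO label and at 6.47, 6.41 and 6.37 under the wildtype label. The groups lay apart, and the difference of 0.35 (95% interval -0.09 to 0.79) did not pass. It passed with eBayes without trend (adjusted p = 0.0448) and in no other alternative that gave a value. Nr0b2, or SHP, which lacks a DNA-binding domain and represses other receptors, was at 7.62, 7.78 and 7.48 under the Rhau KO label and at 7.88, 7.95 and 7.85 under the wildtype label. These groups lay apart too, with a difference of -0.26 (-0.56 to 0.03) and no call. Nr5a1, the regulator of steroid-making glands, and Nr5a2, its relative in liver and early embryo, lay below the filter. Nr5a1 was at 5.10, 3.39 and 3.35 under the Rhau KO label and at 5.59, 5.73 and 5.43 under the wildtype label, and Nr5a2 was at 6.05, 6.39 and 5.83 under the Rhau KO label and at 3.98, 5.32 and 5.68 under the wildtype label. On these probe sets their groups did not overlap, and without the filter they had limma's adjusted p = 0.0995 and 0.193. A second Nr5a1 probe set lay apart the same way, at -1.18. For Nr5a2, another probe set lay apart the other way, at 1.87, 1.87 and 2.48 under the Rhau KO label. Under the wildtype label it was at 3.85, 5.09 and 4.49, a difference of -2.41. Further Nr5a2 probe sets stood at 0.16 and -0.23 with overlapping groups.

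Over the 22 tested receptors without a call, 11 differences were above 0 and 11 below, from -0.26 to 0.49, and 11 of the 22 had a 95% interval wholly within 0.5 log2 units of 0. The sign of the difference turned in at least 1 alternative for 13 of the 22, and for 8 with Y-linked signal as covariate, which follows the label. The 17 receptors below the filter had means between 2.55 and 5.88, a highest single value of 6.65, and non-overlapping groups in 4, Nr1i3 in addition to the 3 named above (23.5%, against 11.6% of all 5777 genes below the filter). Just inside the filter stood Hnf4a at 6.27 and just outside it Nr1d1 at 5.88.

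**Figure D4:**
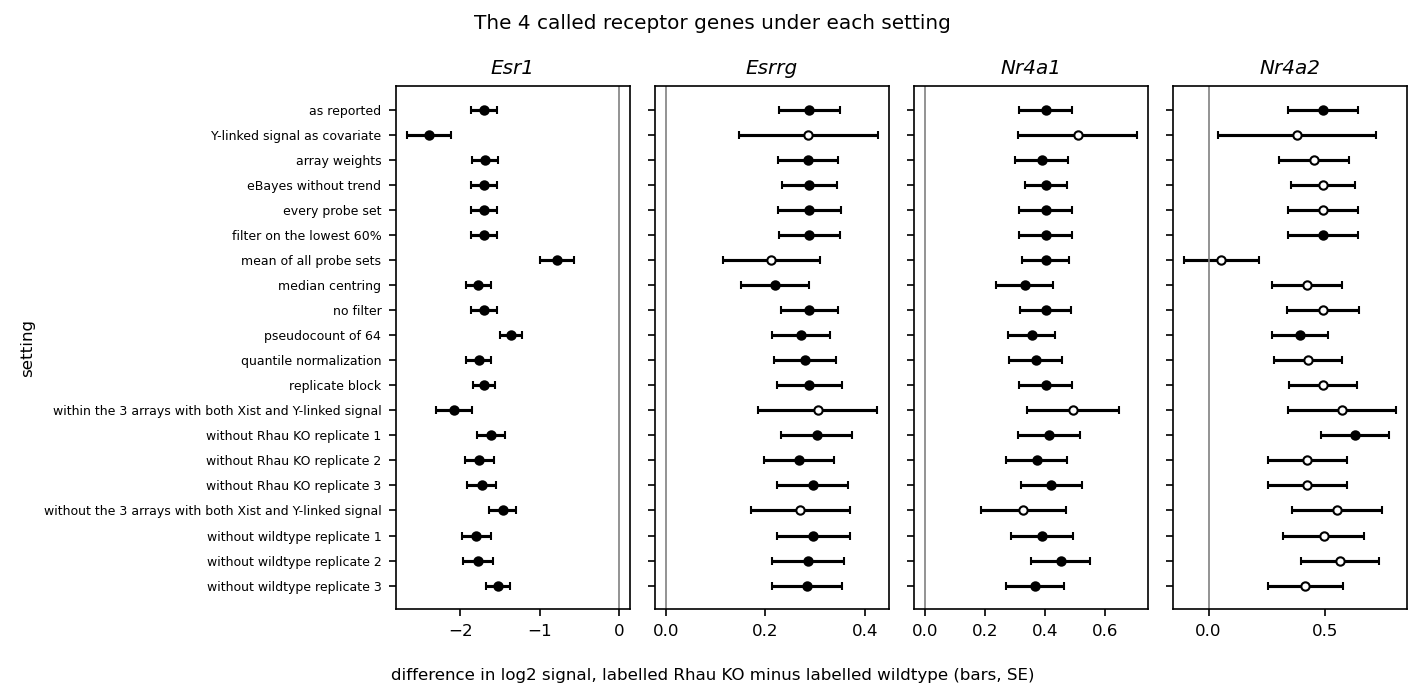
Difference in log2 signal (horizontal axes, labelled Rhau KO minus labelled wildtype, SE as bars) of the 4 called genes as reported and under 19 alternatives; filled points passed the adjusted test. Of the 17 alternatives that kept at least 2 arrays of each label, Esr1 is filled in 17, Esrrg in 15, Nr4a1 in 16 and Nr4a2 in 3. The fits within and without the 3 arrays with both sex-linked signals have 1 array in an arm, and the fill of their points is not read.

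Genes that act with or under the receptors were counted in the same fit, where 8.2% of all tested genes were called higher and 10.8% lower with a median of 0.01. Coactivators and corepressors, the proteins through which receptors switch genes on or off, had 2 higher and 3 lower of 19 tested, with a median of -0.003. Ppargc1a, the coactivator PGC-1 alpha that works with the estrogen-related receptors and PPARs, was at 11.24, 10.91 and 11.04 under the Rhau KO label, against 10.42, 10.39 and 10.32 under the wildtype label. The groups lay far apart relative to their spread, and it rose 1.61-fold (limma, adjusted p = 2.74e-04). Its relative Ppargc1b fell by 0.33, the acetyltransferase Ep300 fell by 0.53, and Hdac3, the deacetylase of the NCoR corepressor complex, fell by 0.44.

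Retinoid metabolism and binding genes had 1 call in 9 tested, with a median of -0.13. Rbp4, the blood carrier of retinol, fell by 0.80 (SE 0.188), a call that was lost without replicate 2 labelled wildtype at -0.62. Aldh1a2, the main retinoic acid synthesising enzyme of the embryonic heart, was at 9.21, 9.43 and 9.25 under the Rhau KO label and at 9.36, 9.63 and 9.83 under the wildtype label and did not pass. Thyroid hormone genes had 1 higher and 1 lower of 4, with a median of -0.03. Dio2, the deiodinase that makes active thyroid hormone inside cells, was at 7.22, 7.37 and 7.27 under the Rhau KO label, against 5.75, 5.78 and 6.35 under the wildtype label. All 3 arrays labelled Rhau KO were higher, 2.51-fold on average (limma, adjusted p = 0.00250), with a mean labelled wildtype near the filter and with 0.73 and no call with Y-linked signal as covariate. The transporter Slc16a10 fell by 0.46, a call kept only without replicate 3 labelled Rhau KO among the 6 fits that leave out 1 array.

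Glucocorticoid response genes and receptor chaperones had 2 higher and 1 lower of 9, with a median of 0.06. Tsc22d3, or GILZ, a gene induced by glucocorticoids in many cells, was at 11.84, 11.79 and 11.80 under the Rhau KO label, against 11.01, 10.84 and 11.03 under the wildtype label. It rose 1.80-fold (limma, adjusted p = 9.75e-06). Hsd11b2, which inactivates glucocorticoids, rose by 0.55, and Sgk1, a kinase gene induced by them, fell by 0.35. Calls for Hsd11b2 and Sgk1 were lost without replicate 2 labelled Rhau KO and without replicate 2 labelled wildtype, at 0.48 and -0.29. Fkbp5, another glucocorticoid response gene, differed by -0.04 without a call, so the members of this list did not move one way.

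PPAR response genes had 1 higher and 3 lower of 11, with a median of -0.02. Cd36, the fatty acid transporter, was at 10.35, 10.25 and 10.36 under the Rhau KO label, against 11.24, 11.30 and 11.24 under the wildtype label, and fell 1.92-fold (limma, adjusted p = 4.12e-06). Fabp3 fell by 0.28 and Hadha by 0.20, while the lipase gene Lpl rose by 0.37. Cd36 is also made by endothelial and blood cells, whose markers moved as given above. The Hadha call was lost without replicate 1 labelled Rhau KO and without replicate 1 or 3 labelled wildtype, at -0.20, -0.21 and -0.18. Liver X receptor response genes had 2 higher and 3 lower of 8, with a median of -0.25. The cholesterol exporters Abcg1 and Abca1 stood at -0.61 and 0.27, both with a call, the receptor degrader Mylip at -0.34 and the desaturase Scd2 at -0.29. Calls for Abcg1, Abca1 and Mylip were kept in 3, 2 and 2 of the 6 fits that leave out 1 array, and that for Scd2 in all 6.

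Circadian clock genes had 1 higher and 3 lower of 12, with a median of -0.04. Nfil3, a repressor that the REV-ERB proteins control, rose by 0.48, while Bhlhe40, Tef and Clock fell by 0.49, 0.35 and 0.26. The Tef call was kept in all 6 fits that leave out 1 array, but its difference was 0.02 with all probe sets averaged. Those for Nfil3, Bhlhe40 and Clock were kept in 3, 2 and 1, and Bhlhe40, whose groups overlapped, was at 0.24 with Y-linked signal as covariate. Arntl, the partner of Clock and a target of the REV-ERB proteins, differed by 0.08 without a call.

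Genes induced by estrogen, mostly known from breast cells, had 1 higher and 4 lower of 7, with a median of -0.16. Ctsd, a lysosomal protease gene, was at 11.94, 11.87 and 11.88 under the Rhau KO label, against 12.36, 12.29 and 12.33 under the wildtype label, and fell by 0.43 (limma, adjusted p = 1.77e-04). Tff1 fell by 0.41, the chemokine Cxcl12 fell by 0.30, and Igfbp4, a binding protein of insulin-like growth factors, rose by 0.19. The Ctsd and Cxcl12 calls were kept in all 6 fits that leave out 1 array, and those for Tff1 and Igfbp4 in 2 and 3. Greb1, a gene that follows estrogen receptor activity closely in breast cells, was at 7.22, 7.34 and 7.36 under the Rhau KO label and at 6.67, 6.97 and 7.43 under the wildtype label, with no call. Of the 29 called genes of the 8 lists, 13 kept the call in all 6 such fits. Ppargc1a, Tsc22d3 and Cd36 were the 3 whose call was kept with Y-linked signal as covariate. The lists were chosen with earlier results known, and the share of all called genes that stay called in all 6 fits was not counted. These pooled counts are therefore no result about the lists.

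**Figure D5:**
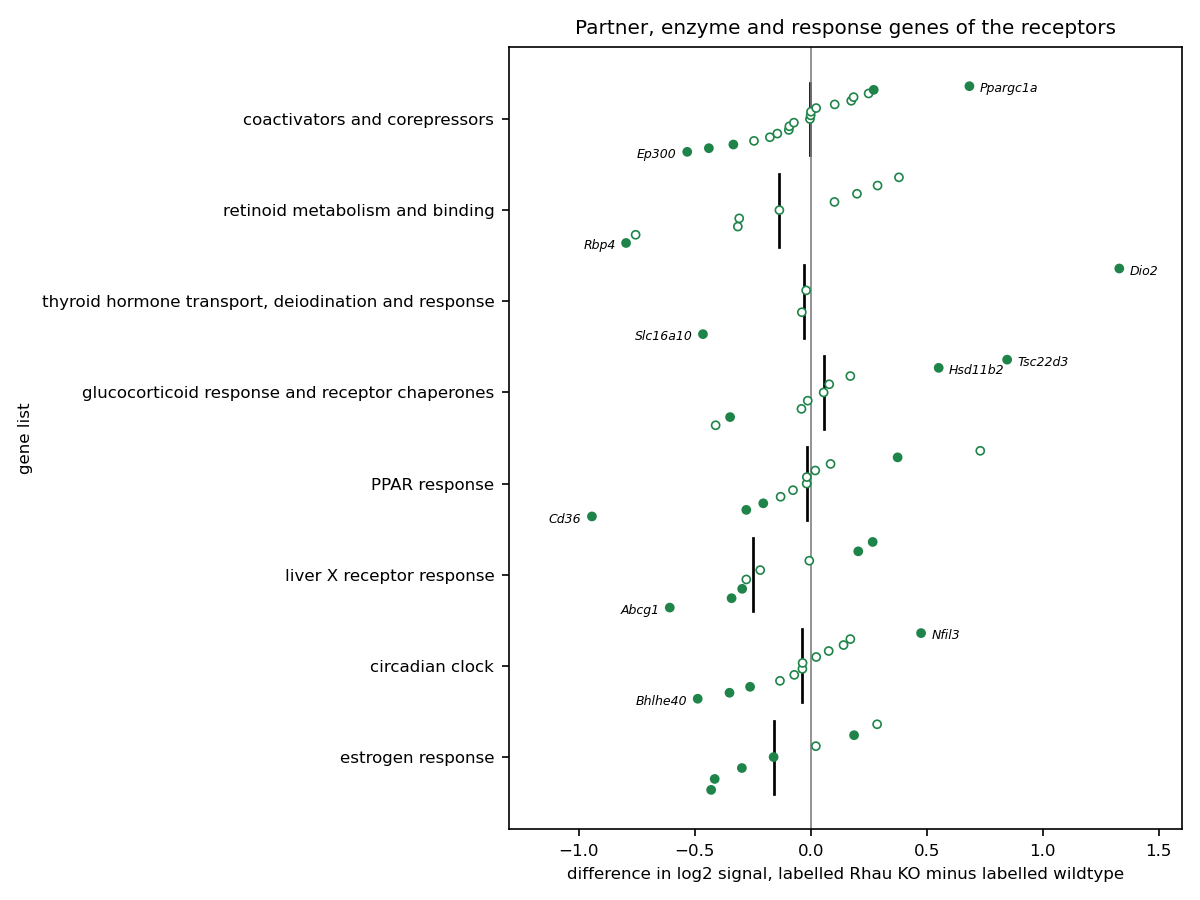
Difference in log2 signal (horizontal axis, labelled Rhau KO minus labelled wildtype) of the tested genes in 8 lists of partners, enzymes and response genes; filled points passed the adjusted test, vertical bars are list medians, and called genes with a difference of at least 0.45 in size are named. Calls fall on both sides of 0 in all lists except retinoid metabolism and binding, which holds 1.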

How the data were processed

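Expression was measured on 6 Affymetrix arrays. The deposited table holds log2 values of signals that the authors made with MAS5, per the submitters' processing notes (no version is given in the sources used here). Taken out of logs, the 2% trimmed mean was 500.0 on every array, and log2 medians lay between 6.68 and 6.80, so no further scaling was applied. Detection calls were not used. After 64 control probe sets were left out of 45101, gene names came from GEO's platform annotation (34945 probe sets name 1 gene, 932 several, 9160 none or not listed), updated through RefSeq identifiers (34741 matched). At least 44993 of 45037 values differed between arrays of a label.

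Genes whose brightest probe set fell below the 40th percentile of mean signal over all 45037 probe sets were left out. These were 5777 of 18193 genes. Limma 3.58.1 in R 4.3.3 (lmFit, eBayes with trend, two-sided, Benjamini-Hochberg, threshold 0.05) was fitted to 12416 genes. Every adjusted p is from this fit or from a limma fit under the setting named beside it. Without the filter the adjustment ran over 18193 genes, and with each probe set on its own over 22796 probe sets. Tables and plots used Python 3.11.15, pandas 2.3.3 and matplotlib 3.10.9. In simulated data of this comparison with 12416 genes, the fit recovered 59.7% of 67 genes given a 1.5-fold change. It recovered 88.1% of 67 given a 2-fold change, and smaller changes were not simulated. Far fewer genes were changed in the simulation than were called in the data, and the adjusted threshold depends on that number. The shares are therefore not the power of the fit in these data.

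The members and lists were chosen with earlier results of these data known. Named genes are every receptor, Dhx36 and the sex-linked genes, and in each other list up to 4 called genes of largest change; Pprc1, Apoe and Xbp1, also called, are not described, while Aldh1a2, Fkbp5, Arntl and Greb1 were added after their values were seen. No table of protein sequences was used.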

Additional observations from a re-analysis of the deposited data

How the results depend on the processing

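The 19 alternatives covered a pseudocount of 64, quantile normalization, median centring, filters, probe set rules, the variance model, array weights, a replicate block, each array left out in turn and Y-linked signal as covariate; the fits within and without the 3 arrays that carried both sex-linked signals were chosen after seeing the data, hold 1 array in an arm that is assumed to vary like the others, and are no check of the 6-array counts. The receptors called higher numbered 3 as reported, 0 with the covariate and 2 to 3 when 1 array was left out. Esrrg and Nr4a1 were called in each of the 6 fits that left out an array. Without replicate 3 labelled wildtype, Nr2c1 was called in place of Nr4a2 (limma, adjusted p = 0.0397 and 0.126), so an equal count did not mean the same genes. The receptors called lower numbered 1 as reported and 2 both with every probe set and after median centring, and 1 in each fit that left out an array. Over all genes, 1018 were called higher and 1336 lower as reported. With the covariate there were 46 and 132, with eBayes without trend 614 and 878, with all probe sets averaged 608 and 824, and after median centring 532 and 1846. The 3-array fits called 298 and 448 within and 377 and 779 without those arrays. When 1 array was left out, 590 to 802 were higher and 916 to 1206 lower. Same-numbered arrays did not deviate together over all genes (correlations across genes of -0.01, 0.04 and 0.01). Such correlations cannot show whether same-numbered hearts shared a litter, a day or a batch. With the replicate block 3 receptors were higher and 1 lower, where the call for Nr4a2 was lost (adjusted p = 0.0509) and Nr2c1 was called at 0.45, with 955 and 1300 genes over all. Tef was at 0.023 with all probe sets averaged and Bhlhe40 at 0.24 with the covariate. No cause of these differences was tested. The 3 arrays a label limit all of these counts, and no detection calls were used for signals near the low end.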
